A study of Mus musculus with 41 samples.

Results

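Collagens are the triple-helical proteins of the extracellular matrix, and the genes that encode their chains were followed here across 41 mouse mammary tumors. Every gene of the deposited table was taken whose symbol has the form Col, a type number, the letter a and a chain number, provided that its mean over the tumors was at least 10. This gave 42 collagen genes of 44 collagen symbols in a table of 47480 genes, of which 17208 had a mean of at least 10. The members comprised 11 fibrillar genes, 6 basement membrane genes, 7 FACIT genes (fibril-associated collagens with interrupted triple helices) and 18 others. The members just inside the limit were Col6a5 with a mean of 13.2, Col26a1 with 15.6 and Col4a3 with 16.5, whereas Col22a1 with 7.93 and Col19a1 with 0.808 fell outside it.

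The study compared Plk2-/-; p53-/- tumors (PLK2null, 28 tumors) with p53-/- tumors (p53null, 13 tumors) and used their RNA to sort tumors into subtypes and to choose p53null tumors as counterparts. The PLK2null tumors also lack Polo-like kinase 2. Both kinds of tumor lacked p53, came from Balb/c mammary epithelium transplanted into cleared fat pads and grew untreated in syngeneic hosts. The series is described as serially transplanted tumors, whereas the study names 7 of the PLK2null tumors as primary, so the passage of a given tumor is uncertain. Among the PLK2null tumors, 3 had been grouped as claudin-low by the study (PLK2null-732, PLK2null-733 and PLK2null-743), and 25 had not, while T11 was the claudin-low tumor among the p53null tumors, beside 12 others whose subtype was not used. Claudin-low tumors are a subtype with low tight-junction and luminal gene expression. Host age and passage number were not used. The labels do not say which tumors descend from the same primary tumor, so p-values measure the spread between these tumors, some of which may be related. Each tumor gave 1 mRNA library with 29409609 to 70868124 fragments on genes as implied by the table. Values are upper-quartile-normalized linear signal, in which the upper quartile of the nonzero genes is 1000 in every tumor, and the detection floor of 3 reads corresponded to 1.16 to 2.45 units.

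Plk2 itself ranged from 36.6 to 553 in the PLK2null tumors (median, 284) and from 186 to 8028 in the p53null tumors (median, 3402). In 12 of 13 p53null tumors it lay above all PLK2null tumors, and in the library labelled p53null-7435 it lay inside the PLK2null range. Results of the genotype comparison were therefore also computed without that library. All 13 p53null titles carry a library series name that no PLK2null title carries, so that series and genotype cannot be told apart. The claudin-low PLK2null tumors stood apart in the markers of several cell types. Their summed luminal epithelial markers (Epcam, Krt8, Krt18 and Cdh1) were 40.1 to 248, against 12794 to 109867 in the other 25 PLK2null tumors, and their summed endothelial markers (Pecam1, Cdh5, Kdr, Tie1, Esam and Emcn) were 165585 to 186496, against 2572 to 78025. The highest of those 25 endothelial sums belonged to the primary tumor PLK2null-7763, and the next was 7743, so counts were also made without PLK2null-7763.

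Fibrillar collagens such as types I, III and V polymerize into the fibrils that give tissue its tensile strength and are made mainly by fibroblasts. Type IV collagen forms the sheet-like network of basement membranes under epithelia and around vessels, with the chains of Col4a1 and Col4a2 in nearly all of them and those of Col4a5 and Col4a6 in some epithelial ones. FACIT collagens sit on the surface of fibrils, type VI forms beaded filaments, type VII the anchoring fibrils that fasten epithelium to stroma, and a few collagens such as type XVII span the cell membrane. A dense collagenous stroma is a known feature of many mammary tumors.

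Collagen transcripts made up 0.500 to 2.06% of the summed signal of a tumor. Per kilobase of the longest coding transcript, the members of highest mean level were Col4a1 with 6743 units per kilobase, Col4a2 with 4517, Col1a1 with 4477, Col3a1 with 4410 and Col1a2 with 4207. The leading collagen by value differed between tumors. Among the 25 other PLK2null tumors it was Col1a1 in 8, Col4a1 in 7, Col18a1 in 7 and Col3a1 in 3, and in all 3 claudin-low PLK2null tumors it was Col4a1. The members varied widely between tumors, with a median SD of 1.46 on the log2(value + 1) scale, against 0.756 over all 17208 genes. Among genes with a mean of at least 1000, the median SD was 1.46 for 26 collagens and 0.536 for all 6188 genes. The least variable member was Col18a1, the source of endostatin, with an SD of 0.956. The most variable was Col17a1, which encodes a transmembrane collagen of the hemidesmosome, with an SD of 4.09.

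**Figure D1:**
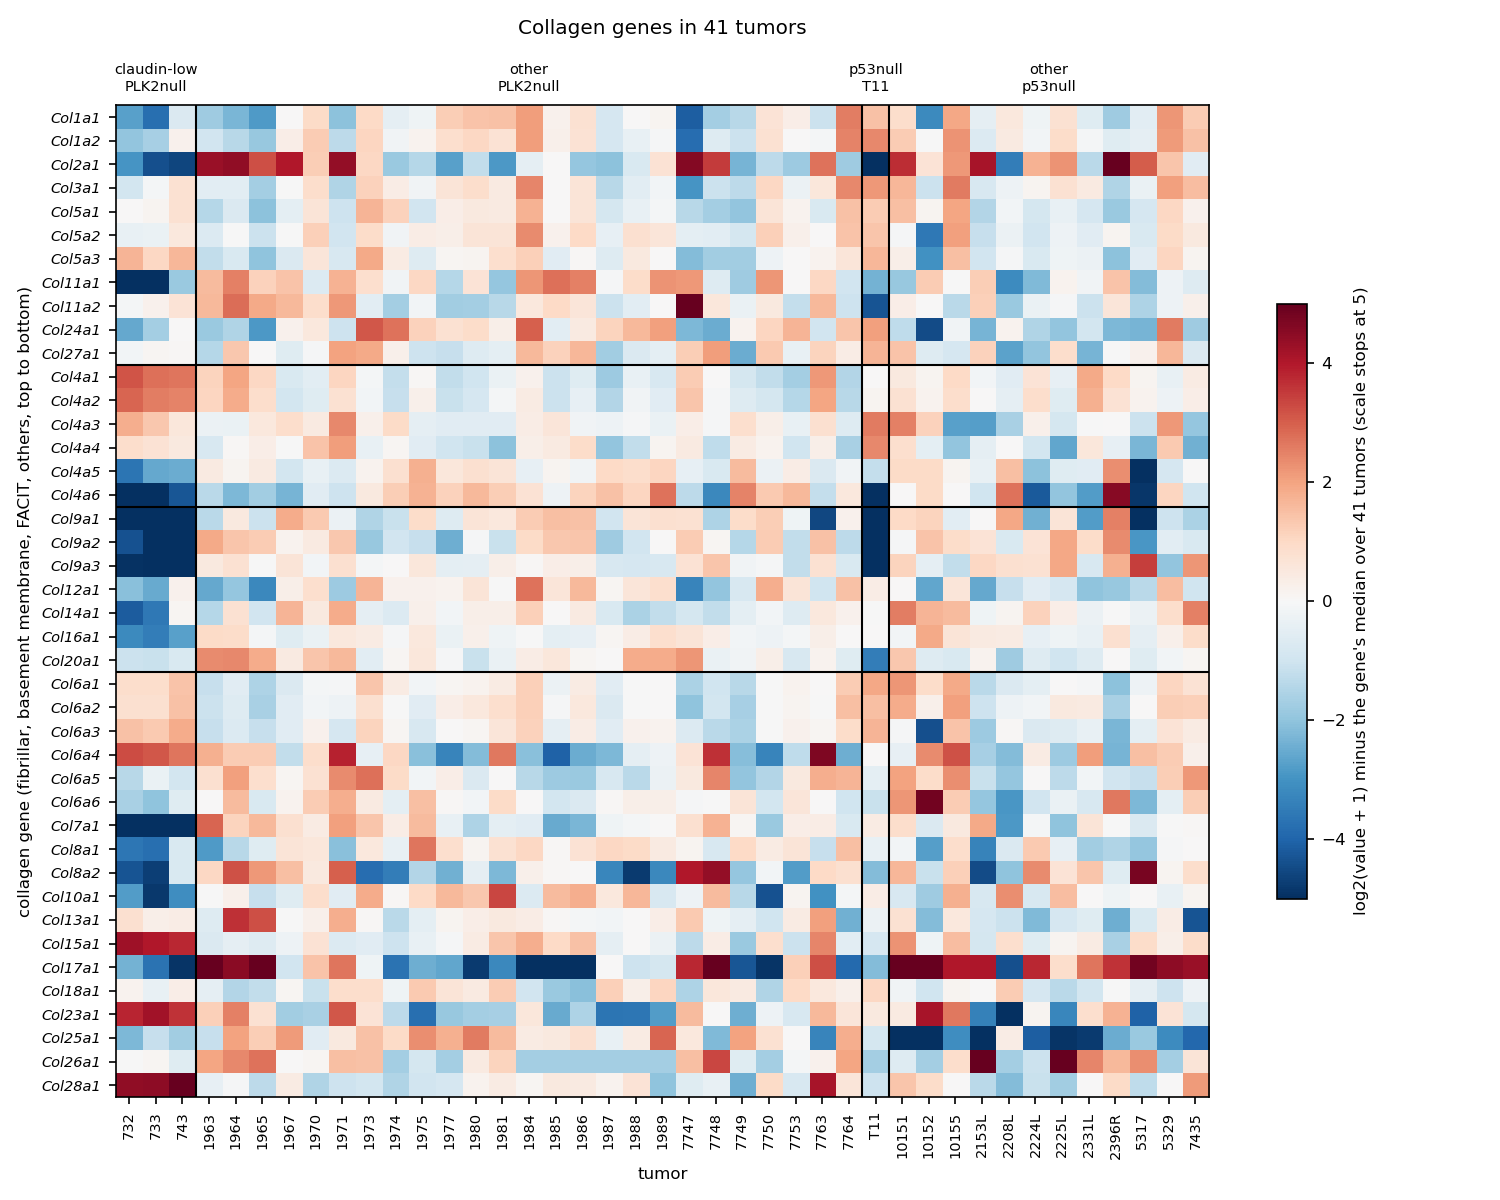
Level of each of the 42 collagen genes (rows, grouped by class) in each of 41 tumors (columns, grouped), as log2(value + 1) minus the gene's median over the tumors, with the color scale stopped at 5. The 3 claudin-low PLK2null tumors are dark blue for Col9a1, Col9a3, Col4a6 and Col7a1 and red for Col4a1, Col4a2, Col15a1, Col23a1 and Col28a1, and Col17a1 spans the whole scale among the other tumors.

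The comparison of the 3 claudin-low PLK2null tumors with the 25 others asked how collagen genes differ with this subtype. In the claudin-low tumors 6 of 7 FACIT genes, the type VII anchoring-fibril gene and the epithelial type IV genes Col4a5 and Col4a6 were lower. The widespread type IV genes Col4a1 and Col4a2 and the type XV gene were higher, type VI was divided, with 2 of 6 genes higher and 1 lower, and the major fibrillar genes did not pass the test. Of 41 members tested, 24 passed at an adjusted p below 0.05, 9 of them higher and 15 lower in the claudin-low tumors. Over all 17153 genes tested, 37.3% passed, 20.2% higher and 17.1% lower. The median log2 fold change was -1.12 for the collagens and 0.02 for all genes. Because the claudin-low group was itself drawn from the expression of these tumors, the p-values measure separation between them and are no independent test of the subtype. These 3 tumors had near-absent luminal markers and endothelial sums above all others, and their pathology was not examined here, so the differences hold for these tumors as grouped and may not hold for claudin-low tumors in general. All 3 claudin-low tumors lay above all 25 others for 6 of 41 members, against 11.1% of all genes tested, and below all 25 for 8 of 41, against 8.87%. Without PLK2null-7763 the count was 25 of 41, beside 38.5% of all genes. Leaving out each claudin-low tumor in turn gave 17 to 20, beside 26.4 to 27.0% of all genes.

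**Figure D2:**
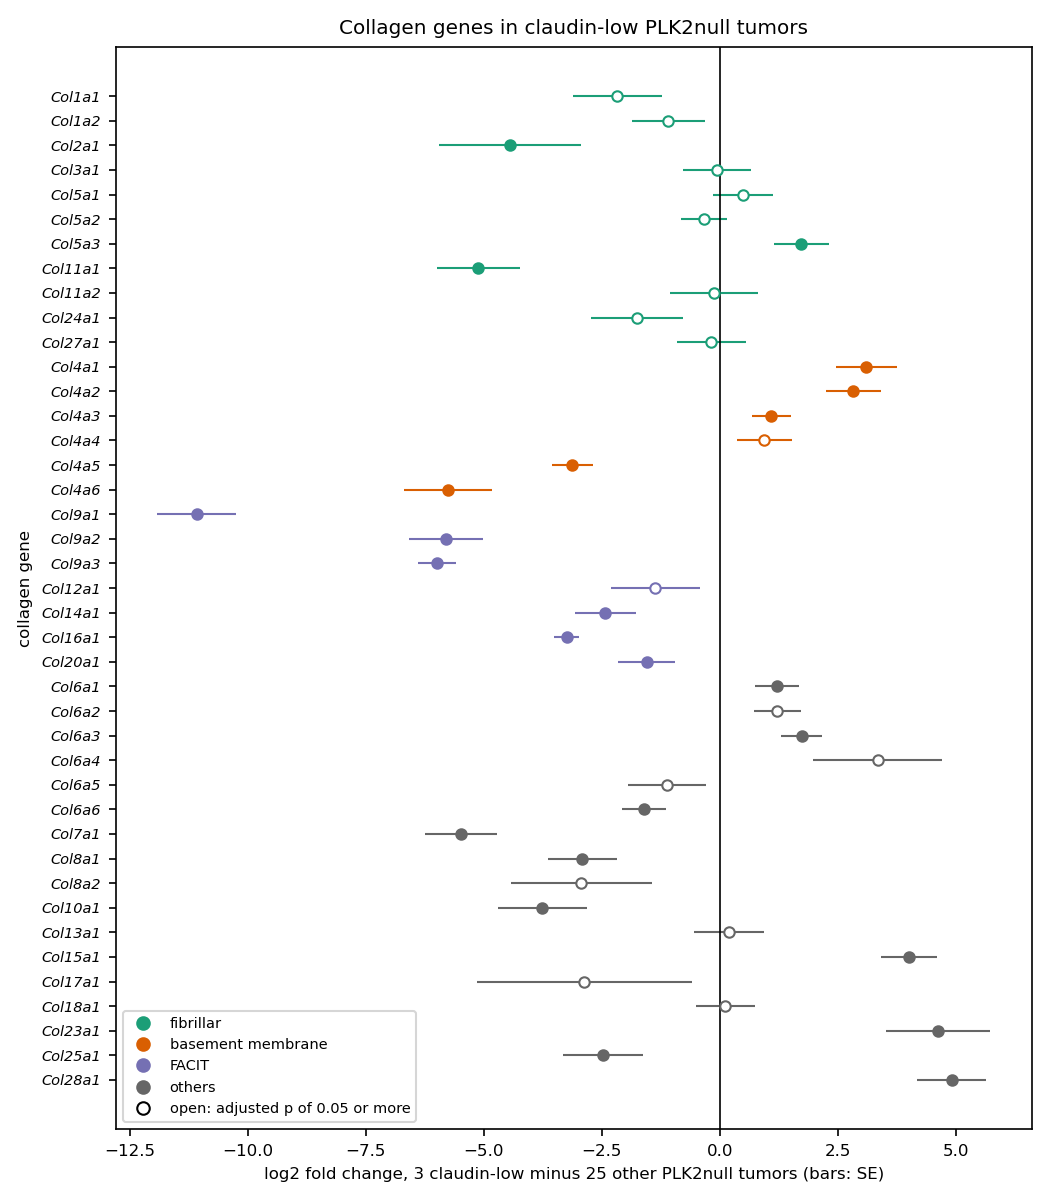
Log2 fold change between 3 claudin-low and 25 other PLK2null tumors for the 41 collagen genes tested (points, with bars of 1 SE), colored by class and filled where the adjusted p was below 0.05. Col9a1 lies farthest to the left at -11.08 and Col28a1 farthest to the right at 4.90, and the 7 FACIT genes all lie left of 0, with Col12a1 open.

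FACIT genes were the class with most members lower. Of 7 tested, 6 were lower and none was higher, with a median log2 fold change of -3.25, and Col12a1 did not pass (-1.37, adjusted p = 0.266). Type IX collagen is built from the chains of Col9a1, Col9a2 and Col9a3 and is best known from the surface of cartilage fibrils. Col9a1 was at 5.73 in PLK2null-732, 0.599 in PLK2null-733 and 0.00 in PLK2null-743, against 196 to 16731 (median, 6560) in the 25 other PLK2null tumors. PLK2null-733 and PLK2null-743 were below the floor of 3 reads, and the groups did not overlap. The log2 fold change was -11.08 (SE 0.84, adjusted p = 2.24e-11), a size that depends on the pseudocount and was -8.66 with a pseudocount of 10. Col9a3 was at 195, 86.3 and 52.5 in PLK2null-732, PLK2null-733 and PLK2null-743, against 2565 to 15619 (median, 5984), 63.9-fold lower on the log2(value + 1) scale (log2 fold change -6.00, SE 0.40, adjusted p = 2.18e-12). Col9a2 was at 98.8, 33 and 13.6, against 378 to 7583 (median, 2203), with a log2 fold change of -5.80 (SE 0.78, adjusted p = 9.65e-07). For both genes every claudin-low tumor was below every other PLK2null tumor. The summed level of the cartilage markers was 10.8 to 17.9 in the claudin-low tumors and 26.3 to 13619 in the others, and of the 3 tested Comp was lower and the other two did not pass. The part of these markers in the type IX result was not tested.

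Col16a1, which encodes a FACIT chain found near basement membranes and fibrils of several tissues, was at 785, 645 and 1079 in PLK2null-732, PLK2null-733 and PLK2null-743. The other 25 held 4704 to 13811 (median, 7111), so the groups did not overlap, and the log2 fold change was -3.25 (SE 0.27, adjusted p = 1.92e-10). Col14a1 was at 31.5, 47.3 and 620 in the same order, against 189 to 2101 (median, 525), and PLK2null-743 lay inside the range of the others (log2 fold change -2.43, adjusted p = 0.0039, and -3.75 without PLK2null-743). Col20a1 fell from a median of 164 to 60.5 to 76.8 (log2 fold change -1.55, adjusted p = 0.044). Without PLK2null-732 or PLK2null-733, Col14a1 no longer passed, and Col20a1 failed to pass with any 1 of the 3 claudin-low tumors left out or without the filter on low values.

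The 6 type IV genes split by chain. Col4a1 was at 230628, 177292 and 167989 in PLK2null-732, PLK2null-733 and PLK2null-743, against 7378 to 119894 (median, 18121) in the others, 8.57-fold higher (log2 fold change 3.10, SE 0.64, adjusted p = 0.000327). Col4a2 was at 136259, 105389 and 101725, against 6590 to 70671 (median, 13641), 7.09-fold higher (log2 fold change 2.83, SE 0.58, adjusted p = 0.000302). All 3 claudin-low tumors lay above all 25 others for both genes, and the highest of the 25 was PLK2null-7763. Together these genes gave 58.4 to 72.7% of the collagen signal in the claudin-low PLK2null tumors and 3.90 to 55.8% in the other 25. Col4a5 and Col4a6, whose chains occur in epithelial basement membranes, went the other way. Col4a5 was at 197, 418 and 443 against 1292 to 8460 (median, 2759), with a log2 fold change of -3.13 (SE 0.43, adjusted p = 1.48e-06). Col4a6 was at 0.00, 1.20 and 4.52 against 10.5 to 707 (median, 175), with no overlap and a log2 fold change of -5.76 (SE 0.94, adjusted p = 1.65e-05), which a pseudocount of 10 reduced to -3.57. Col4a3, known from the kidney glomerulus, was low throughout, at 38.7, 28.1 and 15.9 against a median of 9.79, and was higher by a log2 fold change of 1.09 (adjusted p = 0.0384), a call lost without PLK2null-732 or PLK2null-733, without the filter on low values (adjusted p = 0.0521) and with a limma trend (adjusted p = 0.0554). With a pseudocount of 10 the difference was 0.71. Col4a4 did not pass (0.94, adjusted p = 0.213).

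Collagens of other basement membrane and cell-surface structures also differed. Col15a1, a multiplexin of vascular and muscle basement membranes, was at 47796, 40289 and 34235 in PLK2null-732, PLK2null-733 and PLK2null-743. The 25 others held 692 to 13679 (median, 2023), with PLK2null-7763 the highest, and the log2 fold change was 4.0 (SE 0.59, adjusted p = 4.28e-06). Its fellow multiplexin Col18a1 did not pass (0.11, adjusted p = 0.909). Col28a1, a collagen known from peripheral nerve, was at 710, 735 and 1092 against 5.04 to 566 (median, 24.1), 29.9-fold higher (log2 fold change 4.90, SE 0.73, adjusted p = 4.32e-06). PLK2null-7763 gave the 566, and the next highest of the 25 was 63.4. Col23a1, a transmembrane collagen, was at 3033, 3900 and 2619 against 14.6 to 1824 (median, 85.2), again with no overlap (log2 fold change 4.62, SE 1.10, adjusted p = 0.0014). The members for which PLK2null-7763 was the highest of the 25 were Col4a1, Col4a2, Col15a1, Col28a1 and Col6a4. How often it was the highest over all genes was not computed, so no trait of collagens is read from this list.

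Col7a1, the gene of the anchoring fibril, was at 123, 95.9 and 95.4 in PLK2null-732, PLK2null-733 and PLK2null-743, against 716 to 30546 (median, 5133) in the others. No value overlapped, and it was 44.9-fold lower (log2 fold change -5.49, SE 0.77, adjusted p = 1.67e-06). Of the 6 type VI genes, Col6a3 was higher by 1.73 (SE 0.43, adjusted p = 0.00223), with 15290 to 22457 in the claudin-low tumors above 2061 to 13880 in the others. Col6a1 was higher by 1.22 (adjusted p = 0.0402) and Col6a2 gave nearly the same difference of 1.21 without passing (adjusted p = 0.0575). The call of Col6a1 was lost in 6 of 11 alternatives, namely with any 1 of the 3 claudin-low tumors left out, without the filter on low values (adjusted p = 0.0546), with quantile normalization (adjusted p = 0.0989) and with median-of-ratios scaling (adjusted p = 0.0638). Col6a6 was lower (log2 fold change -1.61, adjusted p = 0.00777, and -1.04 with a pseudocount of 10), a call lost without PLK2null-732 or PLK2null-733 and with T11 added to the claudin-low side. Of the short-chain network genes, Col10a1, known from hypertrophic cartilage, was at 7.88, 1.20 and 6.21 against 2.02 to 630 (median, 67.0). PLK2null-733 was below the floor of 3 reads. The log2 fold change was -3.76 (SE 0.95, adjusted p = 0.00237) and ranged from -4.15 to -2.54 over the alternatives. Col8a1 passed as lower too (-2.91, adjusted p = 0.00208), and Col25a1 gave -2.47 (adjusted p = 0.0216), a call lost without PLK2null-732 or PLK2null-743. With T11 added to the claudin-low side and genotype as a covariate, Col25a1 gave -0.99 (adjusted p = 0.49).

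The fibrillar class showed the smallest share of members that passed, 3 of 11, with a median log2 fold change of -0.34. Col1a1 was at 2883, 1374 and 11408 in PLK2null-732, PLK2null-733 and PLK2null-743, against 1089 to 111751 (median, 19207) in the others. The claudin-low values lay within the range of the others and differed several-fold among themselves, and the log2 fold change of -2.17 (SE 0.95) did not pass (adjusted p = 0.073). Without PLK2null-743, Col1a1 passed (log2 fold change -3.01, adjusted p = 0.0474). Col1a2 (-1.10, adjusted p = 0.28) and Col3a1 (-0.06, adjusted p = 0.96) did not pass either. Col11a1, a minor fibrillar chain, was at 36.5, 29.4 and 443 against 429 to 10934 (median, 3329), with PLK2null-743 just inside the range (log2 fold change -5.12, SE 0.88, adjusted p = 3.36e-05). Col2a1, the main cartilage collagen, was at 40.1, 14.4 and 12.4 against 42.3 to 7641 (median, 234), with no overlap, and passed as lower (log2 fold change -4.44, SE 1.5, adjusted p = 0.0211), a call lost without PLK2null-733 or PLK2null-743. Col5a3 was higher, at 5957, 3702 and 5734 against 412 to 6774 (median, 1829), with a log2 fold change of 1.72 (SE 0.58, adjusted p = 0.0197), a call lost without PLK2null-732 or PLK2null-743.

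Markers of other cell types moved with the claudin-low group. All 6 endothelial and all 6 pericyte markers were higher in the claudin-low PLK2null tumors, with median log2 fold changes of 4.85 and 3.41, and all 4 red blood cell markers were higher too. Pecam1 was 34792 to 46193 in these tumors and 602 to 22792 in the other 25. The summed pericyte markers were 88851 to 105609 against 3418 to 35501, with PLK2null-7763 again the highest of the 25. All 4 luminal markers and 3 of 4 basal markers were lower. Of 8 fibroblast markers 3 were lower and none higher, with summed levels of 7738 to 12099 against 12142 to 50391. Most of this sum in the claudin-low tumors was Postn (6062 to 8836, against 7910 to 43799). Dpt (0.06), Fap (0.29), Fbln1 (0.45), Ccdc80 (-0.28) and Mfap5 (-2.38) did not pass. Of 4 adipocyte markers tested, only Fabp4, which capillary endothelium also expresses, passed, as higher (7.05, adjusted p = 2.24e-07). The summed adipocyte markers were 99118 to 124694 against 226 to 51831, with PLK2null-7763 the highest of the 25. Nearly all of this sum in the claudin-low tumors was Fabp4 (99093 to 124638), while Adipoq was 3.58 to 11.9 and Plin1 15.6 to 27.1. Of 4 Schwann cell markers, Mbp was higher (2.37, adjusted p = 0.00821) and Sox10, which mammary epithelium also expresses, was lower (-9.39, adjusted p = 3.65e-14), at 7.34 to 78.8 against 4457 to 39196. The summed red blood cell markers were 64477 to 249281 against 434 to 15193. Of these markers, none was at 0 in all 3 claudin-low tumors. The skeletal muscle sums were 8.96 to 10.7 there, with Myh4 and Myh1 at 0. In bulk RNA, fewer cells of a type and less RNA per cell cannot be told apart, and the part of these markers in the collagen differences was not tested.

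**Figure D3:**
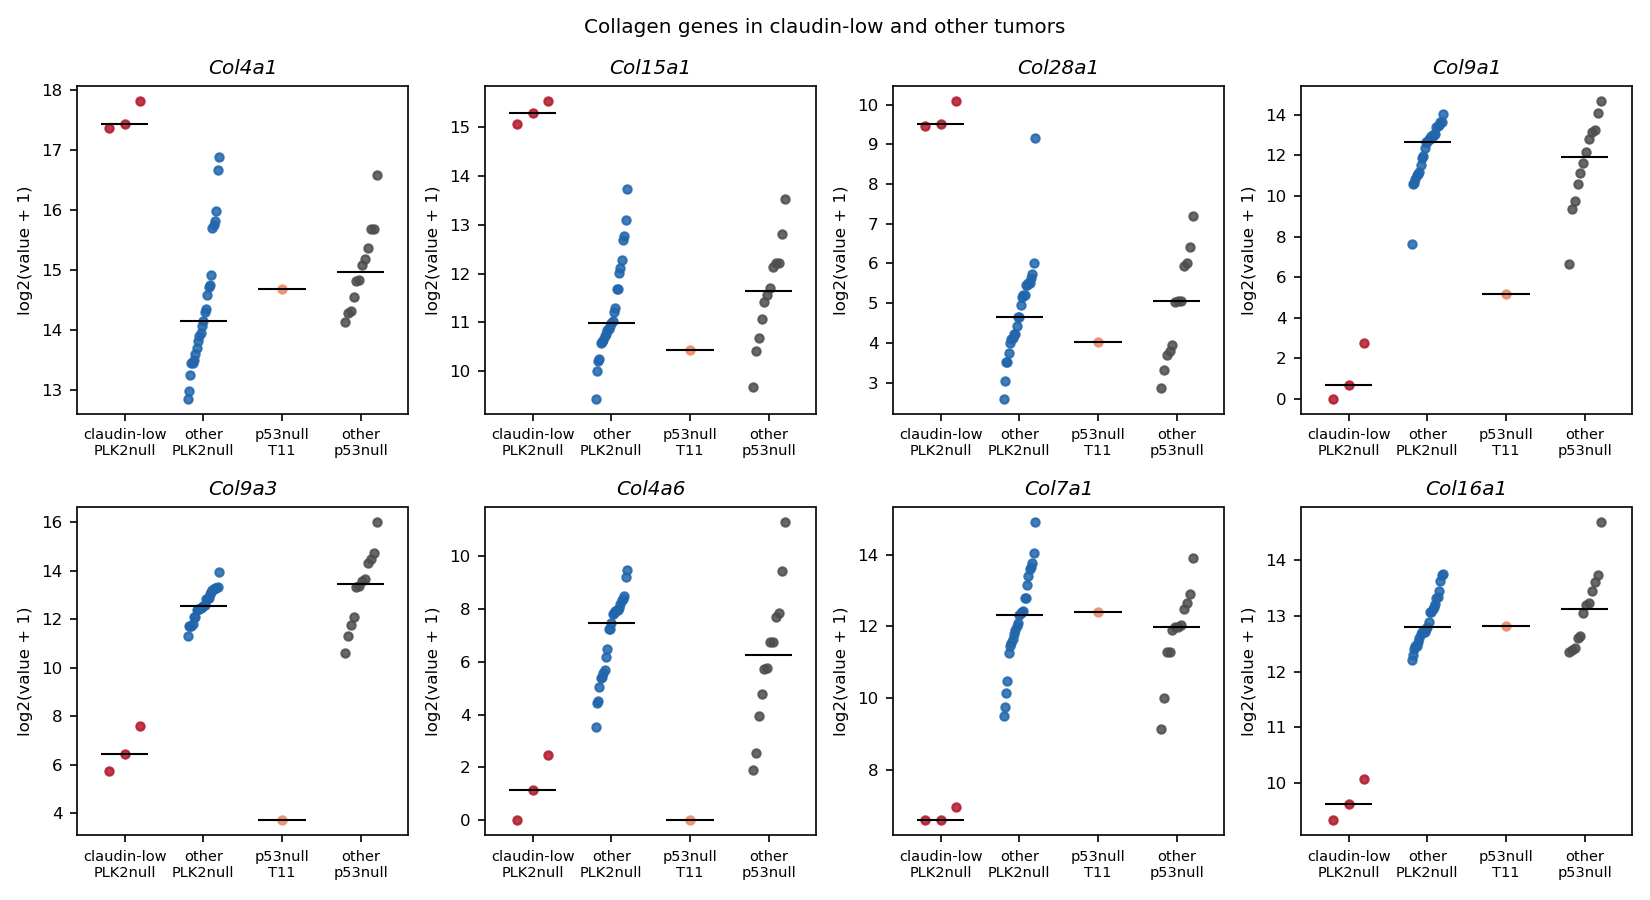
Values of 8 collagen genes on the log2(value + 1) scale in the 3 claudin-low PLK2null tumors, the 25 other PLK2null tumors, p53null T11 and the 12 other p53null tumors (points are tumors, lines are group medians, and each panel has its own axis). Col9a1, Col9a3 and Col4a6 are low in T11 as in the other claudin-low tumors, whereas Col7a1, Col16a1, Col4a1, Col15a1 and Col28a1 of T11 lie inside the range of the other p53null tumors.

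T11 was set beside the 12 other p53null tumors as a single tumor, with no test of its own. It lay below all 12 for 7 of 42 members (Col9a1, Col9a2, Col9a3, Col4a6, Col2a1, Col11a2 and Col20a1), against 17.1% of all genes. It lay above all 12 for 6 (Col1a2, Col27a1, Col4a3, Col4a4, Col5a3 and Col6a3), against 12.5%. Both shares were near those of all genes, so these counts set the collagens apart from other genes in neither direction. All 3 type IX genes were low in each of the 4 claudin-low tumors. In T11, Col9a1 was at 34.6, Col9a2 at 5.63 and Col9a3 at 12.1, against lowest values of 100.4, 272 and 1540.5 among the 12 others. T11 differed from the claudin-low PLK2null tumors in its fibrillar genes, which made up 0.854% of its signal against 0.106 to 0.276%. Its Col1a1 was at 52588 and its Col1a2 at 77292, and its leading collagen was Col1a2. Its summed endothelial markers were 6876, inside the 2041 to 16463 of the 12 others, and its Krt8 (11057) and Krt18 (22508) were not near 0, although its Epcam (81.4) and Cdh1 (61.9) lay below all 12.

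The difference between the claudin-low effects of the 2 genotypes was tested as an interaction, in which T11 alone represents the p53null side and its spread is assumed to equal that of the other groups. Of 42 members, 4 passed, 2 with a positive and 2 with a negative difference, against 9.97% of all 17208 genes (6.54% positive and 3.43% negative). Col7a1 differed by -6.10 (SE 1.52, adjusted p = 0.00705), being at 5425 in T11 beside 566 to 15331 in the 12 other p53null tumors. Col16a1 differed by -2.95 (SE 0.64, adjusted p = 0.00206), with 7217 in T11 beside 5196 to 26192. In both, the 3 claudin-low PLK2null tumors were far below their genotype and T11 was inside the range of its own. Col15a1 differed by 5.19 (SE 1.21, adjusted p = 0.00403), with 1383 in T11 beside 816 to 11881. Col28a1 differed by 5.75 (SE 1.5, adjusted p = 0.00979), with 15.1 in T11 beside 6.24 to 144. Col4a1 (3.46, adjusted p = 0.0514), Col9a3 (3.55, adjusted p = 0.0535) and Col4a2 (3.05, adjusted p = 0.0605) lay just beyond the threshold. All 3 passed without PLK2null-7763. Col4a1 also passed with a pseudocount of 10, a mean of at least 100, a limma trend and median-of-ratios scaling. Col9a3 also passed with a limma trend and without PLK2null-743. The endothelial markers also differed in this test, all 6 of them, as did 4 of 6 pericyte and all 4 red blood cell markers, and their part in the result was not tested.

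The start regions of 2 members that were higher and 2 that were lower in the claudin-low tumors, chosen after their values were seen, are shown so that the sequence can be read beside the values. The 250 bases before the RefSeq start (build GRCm38.p6) are given 5′ to 3′ on the strand of the gene, and no GENCODE exon overlaps them. Capitals mark any of 5 short words searched on both strands, namely the TATA-box word TATAAA, the CCAAT-box word CCAAT, the GC-box word GGGCGG, the E-box word CAGGTG and the HMG-box word ACAAAG, whose matches describe the letters and are not shown to be binding sites. The windows are Col7a1 at chr9:108953336-108953585 (plus strand), Col9a1 at chr1:24177360-24177609 (plus strand, the first of 2 starts), Col15a1 at chr4:47207762-47208011 (plus strand) and Col28a1 at chr6:8192618-8192867 (minus strand).
Col7a1: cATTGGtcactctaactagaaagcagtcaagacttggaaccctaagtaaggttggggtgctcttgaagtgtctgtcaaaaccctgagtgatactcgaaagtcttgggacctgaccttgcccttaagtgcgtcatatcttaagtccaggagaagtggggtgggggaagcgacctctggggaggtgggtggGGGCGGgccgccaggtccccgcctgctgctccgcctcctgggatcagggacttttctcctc
Col9a1: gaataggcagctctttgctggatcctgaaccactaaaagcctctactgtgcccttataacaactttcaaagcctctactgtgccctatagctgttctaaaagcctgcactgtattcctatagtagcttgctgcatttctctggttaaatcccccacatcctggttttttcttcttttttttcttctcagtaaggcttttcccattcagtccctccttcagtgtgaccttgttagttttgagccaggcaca
Col15a1: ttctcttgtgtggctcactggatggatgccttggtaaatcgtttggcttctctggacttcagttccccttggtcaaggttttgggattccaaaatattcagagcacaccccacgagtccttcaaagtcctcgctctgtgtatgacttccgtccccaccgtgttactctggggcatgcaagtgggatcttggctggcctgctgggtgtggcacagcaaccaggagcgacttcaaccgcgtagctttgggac
Col28a1: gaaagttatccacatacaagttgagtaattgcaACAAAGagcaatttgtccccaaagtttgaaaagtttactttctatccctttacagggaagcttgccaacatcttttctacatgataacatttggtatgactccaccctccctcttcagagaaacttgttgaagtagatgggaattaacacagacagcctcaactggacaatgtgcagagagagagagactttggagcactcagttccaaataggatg
The Col7a1 window held CCAAT and GGGCGG, 1 match each, Col28a1 held ACAAAG and the other windows held none of the words. RefSeq windows were matched for 34 of the 42 members, in 37 windows. GGGCGG or its complement stood in 22 of these 37 windows (59.5%), against 32.7% of all 32851 windows of this length, and no test was made. The shares of the other words were 13.5% against 12.4% for TATAAA, 35.1% against 33.8% for CCAAT, 10.8% against 17.2% for CAGGTG and 10.8% against 16.5% for ACAAAG. The median GC content was 59.2% in the collagen windows and 52.4% in all.

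Chains that form a common molecule, or whose genes are neighbours, were compared by the difference of their log2(value + 1) in each tumor. Over all 861 pairs of members this ratio had a median SD of 2.32 across the 41 tumors. The pair with the smallest SD of all was Col4a1 and Col4a2, at 0.182, although each gene alone had an SD of 1.25 or 1.14. The log2 ratio of these genes stayed between 0.16 and 0.85 while Col4a1 ran from 7378 to 230628, and it was 0.72 to 0.76 in the claudin-low PLK2null tumors and 0.40 in T11. Col4a1 (chromosome 8, 11198423 to 11312826, minus strand) and Col4a2 (chromosome 8, 11312805 to 11449287, plus strand) are transcribed away from a shared start region on GRCm38, and their RefSeq starts overlap by 22 bases. These bases, chr8:11312805-11312826 on the plus strand, are printed because both transcripts of the closest pair begin there. Capitals mark the GC-box word GGGCGG, found once.
Col4a2 start to Col4a1 start: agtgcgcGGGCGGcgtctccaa
Col6a1 and Col6a2, neighbours on chromosome 10 with 85162 bases between them, came next among the pairs chosen, with an SD of 0.308. The usual type I molecule holds chains of both Col1a1 and Col1a2. Their ratio had an SD of 0.706 and was lowest in p53null-10152, where Col1a1 was at 2080 and Col1a2 at 14370. This library had the fewest fragments (29409609). It also had the highest log2 ratios of Col3a1 over Col5a2 (3.95), Col5a1 over Col5a2 (3.11) and Col6a1 over Col6a2 (1.09). Being neighbours did not go with a tight ratio in every pair. Col4a5 and Col4a6 lie head to head on the X chromosome with 1309 bases between them, and their ratio had an SD of 1.64 and was widest in T11, where Col4a5 was at 1066 and Col4a6 at 0. Col4a3 and Col4a4, 72 bases apart on chromosome 1, had an SD of 0.889, but both were low, with means of 16.5 and 42.2. Their lowest log2 ratio, -3.99, came from p53null-2153L, where Col4a3 was at 0.703, below the floor of 3 reads. The type IX ratios had SDs of 2.23 for Col9a1 over Col9a2 and 1.55 for Col9a2 over Col9a3, both under the median of 2.32 over all pairs, and the first includes tumors with Col9a1 below the floor. In p53null-5317, Col9a3 was at 65463, the highest value of this gene, while Col9a2 was at 272 and Col9a1 at 100. In PLK2null-7763, Col9a1 was at 196, the lowest of the 25, while Col9a2 was at 5630, second from the highest. Of the 11 pairs, the widest ratio was that of Col8a1 and Col8a2, with an SD of 2.92.

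**Figure D4:**
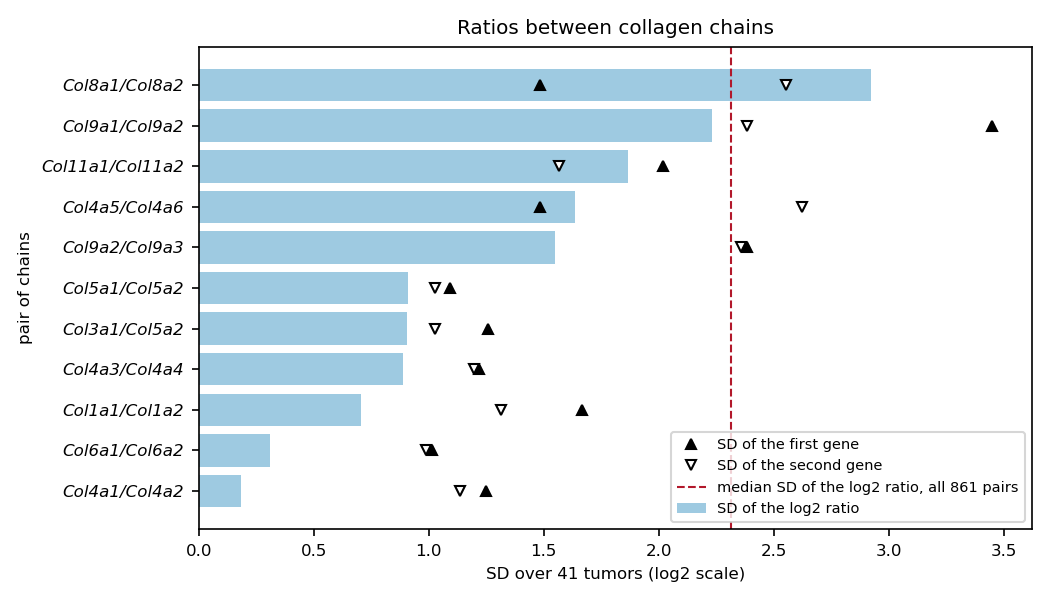
SD across 41 tumors of the log2 ratio between paired collagen chains (bars), with the SD of each gene alone (triangles, log2(value + 1) scale) and the median SD over all 861 pairs of collagen genes (dashed line at 2.32). Col4a1/Col4a2 has the shortest bar at 0.182 with both genes above 1, and Col8a1/Col8a2, at 2.92, passes the dashed line.

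The genotype comparison set the 28 PLK2null tumors against the 13 p53null tumors. Of the 4 transmembrane genes, Col25a1 and Col13a1 were higher and Col17a1 lower in the PLK2null tumors, while Col23a1 did not pass (0.16, adjusted p = 0.895). No fibrillar or type IV gene passed, but without the 4 claudin-low tumors the fibrillar genes Col11a1 (1.31, adjusted p = 0.032) and Col24a1 (1.70, adjusted p = 0.017) did, as higher. Of 42 members, 5 passed (3 higher and 2 lower, 11.9%), against 39.5% of all 17208 genes (24.3% higher and 15.3% lower). The higher share of all calls was 61.4%, and became 50.7% with quantile normalization and 49.2% with median-of-ratios scaling. The collagens had larger standard errors than most genes, with a median of 0.480 against 0.224, and a median log2 fold change of -0.04, against 0.10 for all genes. Without the library labelled p53null-7435, 4 members passed, beside 39.6% of all genes. With the 7 PLK2null tumors named as primary tumors in place of all 28, Col25a1 passed and no other member did, beside 17.3% of all genes.

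**Figure D5:**
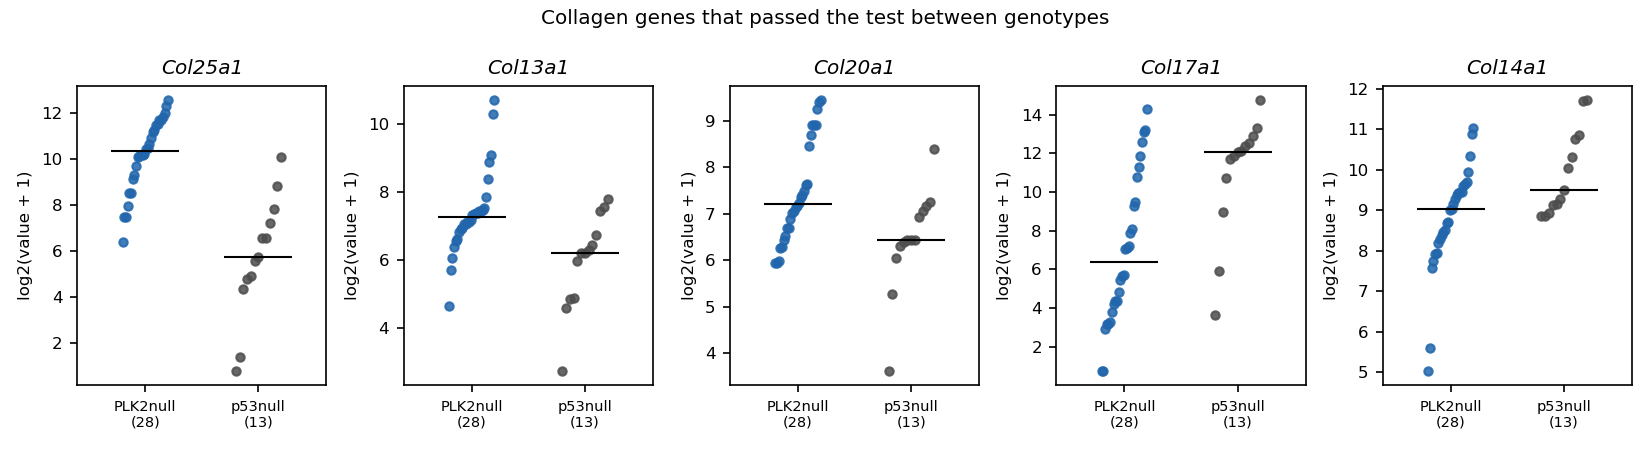
Values of the 5 collagen genes that passed the test between genotypes, on the log2(value + 1) scale, in 28 PLK2null and 13 p53null tumors (points are tumors, lines are medians, and each panel has its own axis). Col25a1 lies above the p53null median in all 28 PLK2null tumors, and the other 4 genes overlap widely.

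Col25a1, a transmembrane collagen expressed in neurons and developing muscle, was 81.7 to 6109 in the PLK2null tumors (median, 1287) and 0.703 to 1072 in the p53null tumors (median, 53). All 28 PLK2null tumors were above the p53null median and 19 were above every p53null tumor. The log2 fold change was 4.45 (SE 0.65, adjusted p = 4.61e-07), and it ranged from 3.90 to 4.97 over the alternatives. Among the PLK2null tumors, PLK2null-7763 was the lowest, and the claudin-low tumors were at 175, 369 and 244. Col13a1, a transmembrane collagen of cell-matrix junctions, was 24.1 to 1666 in the PLK2null tumors (median, 151) and 5.58 to 220 in the p53null tumors (median, 72.6). The ranges overlapped, with 25 of 28 PLK2null tumors above the p53null median (log2 fold change 1.4, SE 0.42, adjusted p = 0.00744). Col20a1, a FACIT gene, was 60.5 to 699 against 11.3 to 333, with medians of 146 and 85.1 (log2 fold change 1.01, SE 0.37, adjusted p = 0.0252).

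Col17a1, the gene of the hemidesmosomal collagen of basal epithelial cells, was 0.652 to 20311 in the PLK2null tumors (median, 90.5) and 11.7 to 28021 in the p53null tumors (median, 4324). The ranges overlapped almost entirely, yet 4 of 28 PLK2null tumors were above the p53null median, and the log2 fold change was -4.01 (SE 1.20, adjusted p = 0.00688). The basal keratin gene Krt5 differed by -5.13 (SE 1.57, adjusted p = 0.00796) and Krt14 by -3.06 (adjusted p = 0.0302), and the summed basal markers had medians of 4986 in the PLK2null and 26298 in the p53null tumors. The part of these markers in the result for Col17a1 was not tested. In the claudin-low comparison Col17a1 did not pass (log2 fold change -2.87, SE 2.28, adjusted p = 0.34). Col14a1, a FACIT gene, was 31.5 to 2101 against 465 to 3416, with medians of 520 and 725 (log2 fold change -1.14, SE 0.41, adjusted p = 0.0239). This call was lost without the library labelled p53null-7435 (log2 fold change -0.99, adjusted p = 0.0531). Of the fibroblast markers, Dpt (-2.13, adjusted p = 0.00203) and Fbln1 (-1.78, adjusted p = 0.00878) were lower in the PLK2null tumors and 6 of 8 did not pass. Of 5 skeletal muscle markers 3 were lower, beside 15.3% of all genes. The muscle sums were uneven, with p53null-2153L (36882.5) and p53null-7435 (26725) far above the p53null median of 55.1. In the PLK2null tumors the median was 15.6 and the highest, PLK2null-7764, was at 3048.

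The genes that make and bind collagen were read from lists of 32 and 12 genes. In the claudin-low comparison, 13 of 31 collagen-making genes tested passed, 8 higher and 5 lower, beside 37.3% of all genes tested. The higher ones included Serpinh1, the collagen chaperone, which was 28903 to 34706 in the claudin-low tumors against 7521 to 33842 in the others (log2 fold change 1.22, adjusted p = 0.0117). The lysyl hydroxylase gene Plod1 (1.91, adjusted p = 0.000848) and the cross-linking enzyme gene Loxl2 (2.01, adjusted p = 0.00159) were higher, whereas the related Loxl1 (-3.28, adjusted p = 0.00151) and Loxl3 (-1.59, adjusted p = 0.000364) were lower. Of 12 collagen-binding genes, 2 were higher and 3 lower, beside 20.2% and 17.1% of all genes. Sparc, a matricellular protein that binds collagen, rose by 2.64 (adjusted p = 2.46e-06), and Itga1, a collagen-binding integrin chain, by 2.45 (adjusted p = 3.52e-07). Ddr1, the collagen receptor kinase of epithelial cells, was 204 to 280 against 1931 to 9251, with a log2 fold change of -4.22 (adjusted p = 6.50e-11). The proteoglycan genes Dcn (-2.50) and Lum (-2.81) passed as lower, but the claudin-low tumors were not uniform. Dcn was 50.8 to 1305 in them against a median of 1103 in the others, and Lum 12.9 to 567 against 496. For both genes the highest claudin-low value was thus above the median of the others. Between genotypes, 5 of 31 collagen-making genes passed, all higher in the PLK2null tumors, beside 39.5% of all genes that passed and 24.3% that were higher. Loxl3 had the largest difference (1.23, adjusted p = 0.000496). Of the collagen-binding genes, Itga2 (1.54, adjusted p = 0.000346) and the receptor kinase gene Ddr2 (1.11, adjusted p = 0.0426) were higher and none was lower. In the interaction, 2 of 31 collagen-making and 5 of 12 collagen-binding genes passed, beside 9.97% of all genes.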

How the data were processed

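RNA from 28 PLK2null and 13 p53null mouse mammary tumors was sequenced from both ends, with 1 library per tumor. The authors aligned reads to mm10 with STAR and quantified genes with Salmon, and the submitters' processing notes name STAR 2.7.6a, Salmon 1.4.0, Picard 2.22.4 and SAMtools. The deposited values are a linear signal, Salmon counts scaled to an upper quartile of 1000. The gene annotation used is not given in the sources used here. Upper-quartile scaling sets values relative to the other genes of a tumor, so they are no absolute amounts. No column of the table was left unused (0 columns). The value of 1 read was found from the step of low values. Between 77.9 and 80.5% of nonzero values lay within 0.1 of a whole read, too few to recover reads, so no count model was used. The floors cover counting error only, whereas the standard errors come from the spread between tumors.

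Tests used limma 3.58.1 in R 4.3.3 on log2(value + 1), for every gene whose mean over the fitted tumors reached 10, with Benjamini-Hochberg adjustment over all genes tested and a threshold of 0.05. This scale understates changes of low genes. Col26a1 fell under the mean of 10 among the PLK2null tumors and was not tested in the claudin-low comparison. The code was tested on simulated data. Positions and lengths came from GENCODE vM21 and start regions from RefSeq. Members, classes, lists and tests were chosen with earlier results of these data known. Up to 10 passing members in each direction, 11 chain pairs, Col17a1 and the 5 members of highest level per length were chosen for description. Not all of their values are printed, since some appear only as fold changes or in figures. Other genes were named for completeness. The p53null-7435 alternatives were added after its Plk2 value was seen.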

Additional observations from a re-analysis of the deposited data

Results flagged for a closer look

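In linear values of the 4 claudin-low tumors, the lowest or highest stood apart by Dixon's criterion (95% level) for 7 of 42 collagen genes. Chance alone flags about 5% of groups if values are normally distributed. The criterion was not applied on the log2(value + 1) scale used for the tests, so 7 of 42 cannot be set against that 5%. The 4 tumors are of 2 genotypes. In 6 of the 7 genes the tumor apart was T11, which was the highest of the 4 for Col10a1 (78.8, beside 1.20 to 7.88), Col16a1 (7217, beside 645 to 1079), Col27a1 (1916, beside 548 to 645), Col4a4 (196, beside 51.4 to 67.3), Col7a1 (5425, beside 95.4 to 123) and Col9a1 (34.6, beside 0.00 to 5.73). For Col5a3, PLK2null-733 was the lowest at 3702, beside 5734 to 5957.

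The claudin-low effect differed between genotypes for 4 of 42 collagen genes in the limma interaction test, a share near the 9.97% of all genes that passed it. The effect in PLK2null minus that in p53null was 5.19 for Col15a1, -2.95 for Col16a1, 5.75 for Col28a1 and -6.10 for Col7a1. Because T11 is a single tumor, the genotype and what is particular to T11 cannot be told apart.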

How the results depend on the processing

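No paired analysis was possible because the groups share no replicate numbers. The alternatives were a pseudocount of 10, no filter, a mean of at least 100, a limma trend, quantile normalization, median-of-ratios scaling and fits with fewer or regrouped tumors. No collagen call changed its direction in any of them. In the genotype comparison, 5 collagens passed, beside 39.5% of all genes. The count became 8 without the 4 claudin-low tumors, beside 42.4% of all genes. Those that joined were Col11a1 (1.31, adjusted p = 0.032), Col24a1 (1.70, adjusted p = 0.017) and Col8a1 (1.06, adjusted p = 0.0444). It became 1 with the 7 named primary tumors, where 2942 of 17050 genes (17.3%) passed. Of 55 values of single genes under these alternatives, 50 passed as before. In the claudin-low comparison 24 collagens passed, beside 37.3% of all genes. The count was 17 to 20 with each claudin-low tumor left out (26.4 to 27.0% of all genes). In the other settings it was 21 to 25 (25.1 to 39.2% of all genes). Of 262 single values, 236 passed as before. In the interaction, 4 collagens passed, beside 9.97% of all genes. The count was 4 to 5 with each claudin-low tumor left out (7.18 to 7.50% of all genes) and 7 without PLK2null-7763 (11.4%). All 44 single values passed as before. Some of the other settings of the interaction added Col4a1 or Col9a3. Median-of-ratios scaling moved the median log2 fold change of all genes from 0.10 to -0.02 between genotypes, and quantile normalization moved it from 0.19 to -0.07 in the interaction. The cause of these changes was not tested. With 3 tumors or 1 tumor on the claudin-low side, small differences could not be resolved. Values of Col9a1 in PLK2null-733 and PLK2null-743, of Col4a6 in PLK2null-732, PLK2null-733 and T11, and of Col10a1 in PLK2null-733 were below the floor of 3 reads. Col9a1 in PLK2null-732 (5.73) and Col4a6 in PLK2null-743 (4.52) were low but above it, and Col9a1 in T11 (34.6) was well above it.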
